A study of Rattus norvegicus with 6 samples.

Results

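The interleukin-1 (IL-1) family of ligands and receptors was examined in primary rat chondrocytes treated with retinoic acid. The 10 genes were found in the deposited tables by their symbols, among 18923 genes in all. They are the receptors Il1r1, Il1rl1, Il1rap, Il1r2 and Sigirr and the ligands Il1a, Il1b, Il1rn, Il18 and Il33. They were chosen by family membership, with the RA against CON differences of these same samples already known. Their fold changes and calls are therefore given as a description that supports nothing further, and no p-value is given for them. The cells came from cartilage of 24-hour-old female Sprague-Dawley rats, genotype WT, and were used at passage 1 or 2 in high-glucose DMEM with 10% fetal bovine serum. The CON group (3 samples) was kept in this medium for 24 h, and the RA group (3 samples) received 1 µM all-trans retinoic acid in the same medium for 24 h. The study calls the samples of a group independent and does not say whether they came from separate animals or separate cultures, so the error terms measure the spread between these samples. Poly(A) RNA of each sample was sequenced.

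IL-1 family receptors carry immunoglobulin domains outside the cell and a Toll/IL-1 receptor domain inside it. A ligand joins its own receptor chain to the shared accessory chain IL-1RAP, and the assembled tails recruit MyD88 and IRAK kinases, which lead to NF-κB and MAP kinase signalling. Il1r1 encodes the signalling receptor for IL-1α and IL-1β, and Il1rl1 encodes ST2, the receptor for IL-33. Il1rl1 is also the source of a soluble form of ST2 that lacks the membrane anchor and captures IL-33. Il1r2 encodes a decoy receptor with no signalling tail, Il1rn encodes the receptor antagonist, and Sigirr encodes a receptor that restrains signalling by the others. In cartilage, IL-1 is known for inducing matrix-degrading enzymes and for lowering matrix synthesis.

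The 250 bases before the start site are shown for the receptor chains with the highest levels in these cells, so that the sequence before the gene with the largest RA difference can be read beside those of its partner chains. They are taken from RefSeq on the rat assembly GRCr8, whereas the counts were made on Rnor_6.0, and each is written 5′ to 3′ on the strand of its gene. Capitals mark matches, on either strand, to the motifs named after the sequences. The Il1rl1 window lies at chr9:50203388-50203637 on the plus strand, the Il1r1 window at chr9:50034133-50034382 on the plus strand, and the Il1rap window at chr11:87704343-87704592 on the minus strand. The Il1rl1 window sits inside the annotated span of its gene rather than at its outermost start. Gene-level counts cannot tell which start was used, nor membrane ST2 from soluble ST2.
Il1rl1: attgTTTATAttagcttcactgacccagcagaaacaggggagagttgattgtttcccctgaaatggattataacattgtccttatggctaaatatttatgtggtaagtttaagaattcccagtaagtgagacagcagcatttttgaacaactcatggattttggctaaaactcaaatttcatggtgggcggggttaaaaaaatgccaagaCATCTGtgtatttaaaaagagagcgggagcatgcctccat
Il1r1: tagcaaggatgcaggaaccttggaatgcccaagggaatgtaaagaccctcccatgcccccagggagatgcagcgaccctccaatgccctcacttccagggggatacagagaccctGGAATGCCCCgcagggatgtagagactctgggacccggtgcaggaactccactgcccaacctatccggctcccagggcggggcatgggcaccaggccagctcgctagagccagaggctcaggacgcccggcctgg
Il1rap: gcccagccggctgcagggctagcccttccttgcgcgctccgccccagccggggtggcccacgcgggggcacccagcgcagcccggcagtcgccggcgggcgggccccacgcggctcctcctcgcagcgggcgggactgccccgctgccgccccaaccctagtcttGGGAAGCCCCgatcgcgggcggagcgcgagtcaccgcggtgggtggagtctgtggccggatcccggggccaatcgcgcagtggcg

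A promoter window was found for 9 of the 10 genes, 11 windows in all. The Il1rl1 window had a GC content of 38.4%, against 63.6% for Il1r1, 78.4% for the Il1rap window shown and a median of 51.2% over 33469 rat windows of the same length. Of those windows, 10.5% had a lower GC content than that of Il1rl1. The TATA box, TATAAA, was found in 5 of the 11 windows, those of Il1a, Il1b, Il1rl1, Il1rn and 1 of Il33, and in 12.9% of all windows. In Il1rl1 it lay between 246 and 241 bases before the start, on the reverse strand. The E-box, CANNTG, was in 8 of the 11 windows and in 65.5% of all windows, and in Il1rl1 it lay 40 to 35 bases before the start. The κB motif was in 3 of the 11 windows, at 135 to 126 bases before the start of Il1r1 and in both windows of Il1rap, against 3.54% of all windows. The Il1rap windows overlap and share 1 match, so these are 2 sites in 2 genes. The AP-1 site, TGACTCA, was found in the window of Il1a and in 4.05% of all windows. Of the retinoid receptor hexamers, AGGTCA was found in 0 of the 11 windows and in 14.1% of all windows, and AGTTCA was in that of Sigirr and in 12.2% of all windows. Direct repeats were searched with the wider hexamer pattern (A/G)G(G/T)TCA. They were in 0 of the 11 windows at spacings of 1, 2 or 5 bases, and in 0.194%, 0.137% and 0.326% of all windows. These matches describe the letters in these windows only.

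Total counts were 30170909 to 38007486 in CON and 29370025 to 30952882 in RA. The limit that a count of 0 allows, 3 reads, was 0.0789 to 0.102 CPM (counts scaled to a fixed total per sample), which covers counting error only. CON replicate 1 stood apart from the other CON samples. Its counts differed from theirs by a chi-square per degree of freedom of 39.6 and 63.3 over genes, against 6.53 to 8.25 for the other replicate pairs, so the log2 fold changes of the family genes and of the called pathway genes are also given without it. Of 8 retinoid response genes, 6 were called higher in RA. With a sample left out, Rarb was called only without CON replicate 1, and Tgm2 lost its call without RA replicate 3. Rarb was also not called under upper-quartile scaling, the replicate block or either limma fit, nor was Tgm2 in limma on log2(FPKM + 1). All 7 chondrocyte markers were expressed, and their summed level was 28950 to 38679 CPM in CON and 17700 to 19296 CPM in RA, with 6 of the 7 called lower. Of these, Comp lost its call without CON replicate 3 or RA replicate 1. A gene was called when edgeR's quasi-likelihood test gave a Benjamini-Hochberg adjusted p under 0.05 and the log2 fold change exceeded 0.58 in size. Fewer expressing cells and less RNA per cell cannot be told apart in such bulk samples.

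Il1rl1, the ST2 gene (ENSRNOG00000014835), had the highest level of the family in every sample and was the family gene that was called. Its counts were 3732, 2844 and 3476 in CON and 21835, 17808 and 20773 in RA. In FPKM, fragments per kilobase of gene length scaled by the total count of the sample, it stood at 34.3, 26.6 and 25.8 in CON and at 207, 171 and 189 in RA. The lowest RA sample was far above the highest CON sample, and the samples of each group lay close together. The mean FPKM of CON was 28.9 ± 4.68 (SD, n = 3) and that of RA was 189 ± 18.2 (SD, n = 3). The log2 fold change from counts was 2.70 (SE 0.121, 95% interval 2.42 to 2.98), a level 6.50-fold higher in RA (95% interval 5.36 to 7.87). Without CON replicate 1 it was 2.84.

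Among the 13438 genes tested, the log2 fold change of Il1rl1 ranked 17 from the top. Ranked by FPKM within a sample, Il1rl1 stood at place 2254, 2916 and 2960 in CON and at place 316, 405 and 357 in RA. It took 0.0102% ± 0.00166 (SD, n = 3) of all counted reads in CON and 0.0671% ± 0.00646 (SD, n = 3) in RA. All 10 family genes together took 0.0144% ± 0.00185 and 0.0729% ± 0.00650 (SD, n = 3 each). Most family reads therefore belonged to this receptor in both groups, and nearly all did in RA.

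**Figure D1:**
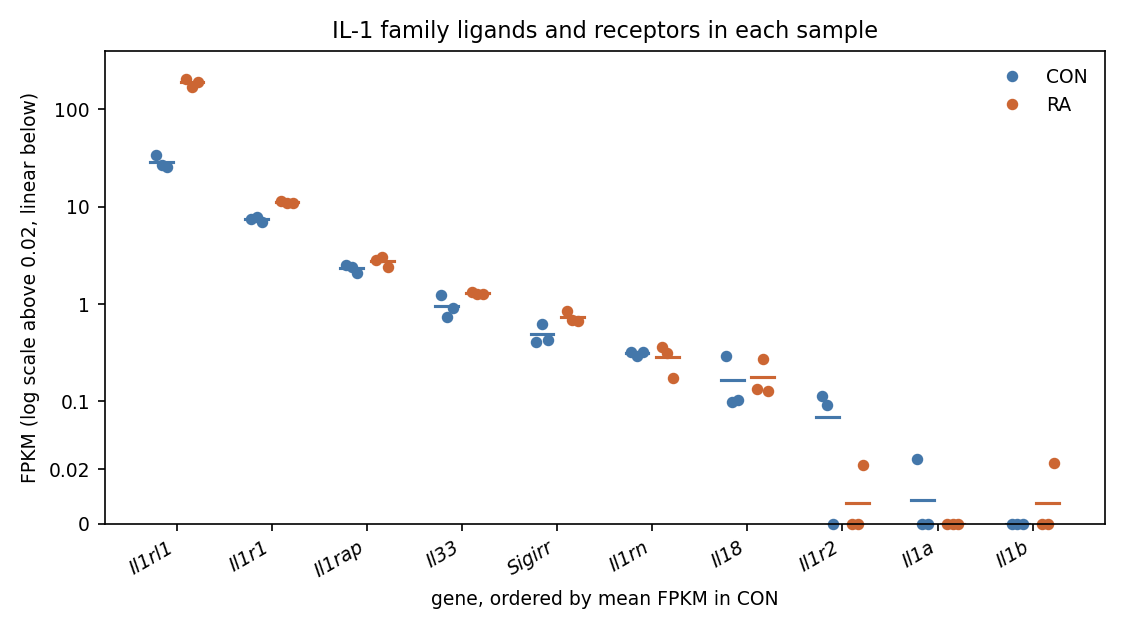
FPKM of the 10 family genes in each of the 3 CON (blue) and 3 RA (orange) samples, with bars at the group means; the axis is logarithmic above 0.02 and linear below. Il1rl1 sits at the top in both groups, at 25.8 to 34.3 FPKM in CON and 171 to 207 FPKM in RA, while Il1r2, Il1a and Il1b lie at or near 0.

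Il1r1, the signalling receptor for IL-1 (ENSRNOG00000014504), was the next most abundant family gene. Its counts were 918, 936 and 1043 in CON and 1331, 1280 and 1343 in RA. The levels were 7.57, 7.85 and 6.95 FPKM in CON and 11.3, 11.0 and 11.0 FPKM in RA. The groups did not overlap, and the RA samples lay very close together. The means were 7.45 ± 0.463 and 11.1 ± 0.198 FPKM (SD, n = 3 each). Its log2 fold change of 0.57 (SE 0.0664, 95% interval 0.41 to 0.72) corresponds to a level 1.48-fold higher in RA (95% interval 1.33 to 1.64). Its fold change lay just short of the 0.58 threshold, so it was not called. Without CON replicate 2 the log2 fold change was 0.60 and the gene was called, and without CON replicate 1 it was 0.57 and was not.

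Il1rap, the accessory chain that both IL-1R1 and ST2 need for signalling (ENSRNOG00000001928), had counts of 263, 246 and 271 in CON and 286, 307 and 250 in RA. The levels were 2.52, 2.40 and 2.10 FPKM in CON and 2.84, 3.08 and 2.38 FPKM in RA. The lowest RA sample lay below the highest CON samples, so the groups overlapped. The means were 2.34 ± 0.218 and 2.77 ± 0.356 FPKM (SD, n = 3 each). The log2 fold change was 0.23 (SE 0.134, 95% interval −0.078 to 0.54). Without CON replicate 1 this was 0.28, and with other samples left out it ran from 0.14 without RA replicate 2 to 0.32 without RA replicate 3.

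Of the ligands, Il33 was the most abundant. Il33 (ENSRNOG00000016456) encodes the ligand of ST2, a nuclear protein released from damaged cells. Its counts were 93, 54 and 84 in CON and 97, 92 and 95 in RA, and its levels were 1.24, 0.732 and 0.904 FPKM in CON and 1.34, 1.28 and 1.25 FPKM in RA. The RA samples were nearly alike, and the highest CON sample fell just short of them. The means were 0.958 ± 0.258 and 1.29 ± 0.0414 FPKM (SD, n = 3 each). The log2 fold change was 0.42 (SE 0.216, 95% interval −0.078 to 0.91). It was 0.63 without CON replicate 1, the CON sample with the highest level, and 0.26 without CON replicate 2, the one with the lowest. In limma on log2(FPKM + 1) it was 0.23. Il33 was not called in any of these fits.

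The IL-1 agonists were at the limit of detection. Il1a (ENSRNOG00000004575) had 1, 0 and 0 reads in CON and 0, 0 and 0 in RA, and Il1b (ENSRNOG00000004649) had 0, 0 and 0 reads in CON and 0, 0 and 1 in RA. Both lay under the limit of 3 reads in every sample, so no difference was detectable at this depth. Il18 (ENSRNOG00000009848), which encodes an agonist of a separate receptor pair, had 9, 3 and 4 reads in CON and 4, 8 and 4 in RA. The sums were 16 and 16 reads, and the groups overlapped. Il1a, Il1b and Il18 were removed by the count filter and not tested.

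Il1rn, the receptor antagonist (ENSRNOG00000005871), had 20, 18 and 25 reads in CON and 22, 19 and 11 in RA. Its levels were 0.311 ± 0.0165 and 0.285 ± 0.0986 FPKM (SD, n = 3 each), and RA replicate 3 was the lowest of all samples. The log2 fold change was −0.15 (SE 0.340, 95% interval −0.93 to 0.63), which turned to 0.11 without RA replicate 3 and stayed at −0.13 without CON replicate 1. Sigirr, the inhibitory receptor (ENSRNOG00000015593), had 20, 30 and 26 reads in CON and 40, 32 and 33 in RA. Its levels were 0.487 ± 0.119 and 0.732 ± 0.0978 FPKM (SD, n = 3 each), with no overlap between the groups. Its log2 fold change was 0.58 (SE 0.272, 95% interval −0.045 to 1.20) and 0.47 without CON replicate 1, and it was not called. It was 0.78 without CON replicate 2 and 0.22 in limma on log2(FPKM + 1), where the pseudocount shrinks differences at low levels. Il1r2, the decoy receptor (ENSRNOG00000014378), had 5, 4 and 0 reads in CON and 0, 0 and 1 in RA. CON replicate 3 was among the samples with no read, so the groups overlapped, and the gene was not tested.

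In total, the count filter kept 6 of the 10 family genes, and 1 of the 6 was called, higher in RA. Over all 13438 genes tested, 4.96% were called, 2.67% higher and 2.29% lower in RA. The CPM values of the groups did not overlap for 4 of the 6, Il1rl1, Il33, Il1r1 and Sigirr, all higher in RA, against 31.9% of all genes tested in either direction. Of the 6 log2 fold changes, 5 were above 0, with a median of 0.49, against a median of −0.0057 over all genes tested. The rest of the range was wide, from −0.15 for Il1rn to 2.70 for Il1rl1.

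**Figure D2:**
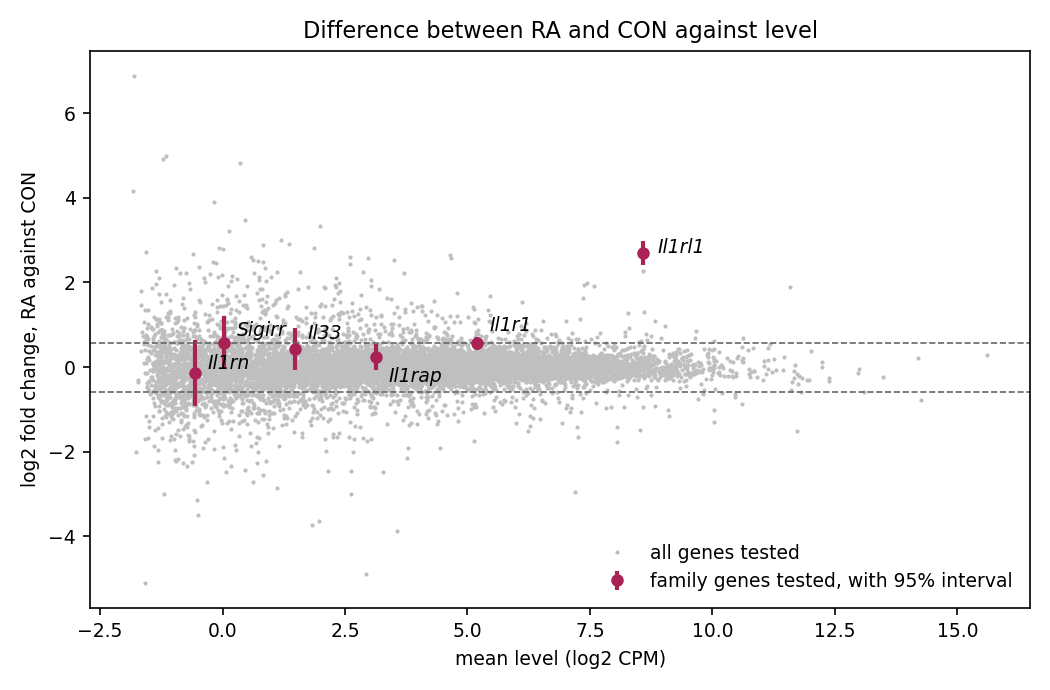
Log2 fold change of RA against CON (y axis) plotted against mean level in log2 CPM (x axis) for all 13438 genes tested (grey) and the 6 family genes tested (red, with 95% intervals); dashed lines mark log2 fold changes of 0.58 in either direction. Il1rl1 lies at 2.70, apart from the other family genes, which lie between −0.15 and 0.58.

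The order of the family by FPKM was the same in both groups for the first 7 genes, namely Il1rl1, Il1r1, Il1rap, Il33, Sigirr, Il1rn and Il18. In CON, neighbours in this order did not overlap between samples down to Il18, which overlapped Il1r2. In RA, the ranges of Il1rn and Il18 overlapped, and Il18 lay above the genes that followed it. Il1r2, Il1a and Il1b could not be ordered in either group.

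The balance between the receptor chains was read within each sample as a ratio of FPKM levels. Il1rl1 stood 13.6, 11.1 and 12.3 times above its accessory chain Il1rap in CON, and 73.1, 55.5 and 79.5 times above it in RA. Against Il1r1, which shares that accessory chain, the mean ratio of Il1rl1 was 3.87 ± 0.589 over the CON samples and 17.0 ± 1.40 over the RA samples (SD, n = 3 each). Neither ratio overlapped between the groups. The ratio of Il1r1 to Il1rap had CON and RA means of 3.19 ± 0.168 and 4.07 ± 0.520 (SD, n = 3 each). Against its ligand Il33, Il1rl1 had mean ratios of 30.8 ± 4.76 for CON and 146 ± 11.5 for RA (SD, n = 3 each). Of the summed FPKM of the 10 genes, Il1rl1 made up 70.8% ± 2.30 (SD, n = 3) in the CON samples and 92.0% ± 0.756 (SD, n = 3) in the RA samples. The ratio of the decoy Il1r2 to Il1r1 was 0.0150, 0.0117 and 0 in CON and 0, 0 and 0.00204 in RA. Its means were 0.00890 ± 0.00787 and 0.000681 ± 0.00118 (SD, n = 3 each), the RA value rests on 1 read, and the groups overlapped.

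Of the receptors, Il1r2, Il1r1 and Il1rl1 lie close to each other on chromosome 9. In the RefSeq order on GRCr8, the cluster runs Il1r2, Il1r1, Il1rl2, Il1rl1, Il18r1 and Il18rap, between Map4k4 and Slc9a4. Il1rl2, the receptor for IL-36 and the neighbour of Il1rl1 on one side, had 127, 145 and 182 reads in CON and 160, 154 and 159 in RA. Scaled for depth, the groups did not overlap, at 0.956 to 1.11 FPKM in CON and 1.19 to 1.25 FPKM in RA. The log2 fold change of Il1rl2 was 0.19 (SE 0.133, edgeR adjusted p = 0.438), and it was not called. Il18r1, the ligand-binding chain of the IL-18 receptor and the neighbour on the other side, had 19, 1 and 12 reads in CON and 15, 9 and 16 in RA. Its log2 fold change of 0.44 (SE 0.675, edgeR adjusted p = 0.736) was smaller than its error.

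Il18rap, the accessory chain of the IL-18 receptor, was called higher in RA. It had 50, 62 and 97 reads in CON and 132, 138 and 122 in RA, and the groups did not overlap. The means were 0.392 ± 0.0872 and 0.822 ± 0.0727 FPKM (SD, n = 3 each), both far below those of Il1rl1. The log2 fold change was 1.05 (SE 0.203, edgeR adjusted p = 0.0140). The call was lost without CON replicate 2 (1.03), RA replicate 1 (1.04) or RA replicate 2 (0.99), and the adjusted p ran from 2.11e-04 to 0.0689 over the alternatives. It was also lost in limma on log2(FPKM + 1), where the log2 difference was 0.39, and the gene was not tested under the filter at an FPKM of 1. Outside the cluster, Map4k4 had a log2 fold change of 0.13 (SE 0.0561, edgeR adjusted p = 0.193) at 67.0 and 74.2 FPKM. Of the 6 cluster genes, 5 were tested and 2 were called higher, Il1rl1 and Il18rap, against 2.67% of all genes tested. Il1rl1 was chosen with its difference already known, so nothing is read from this count.

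**Figure D3:**
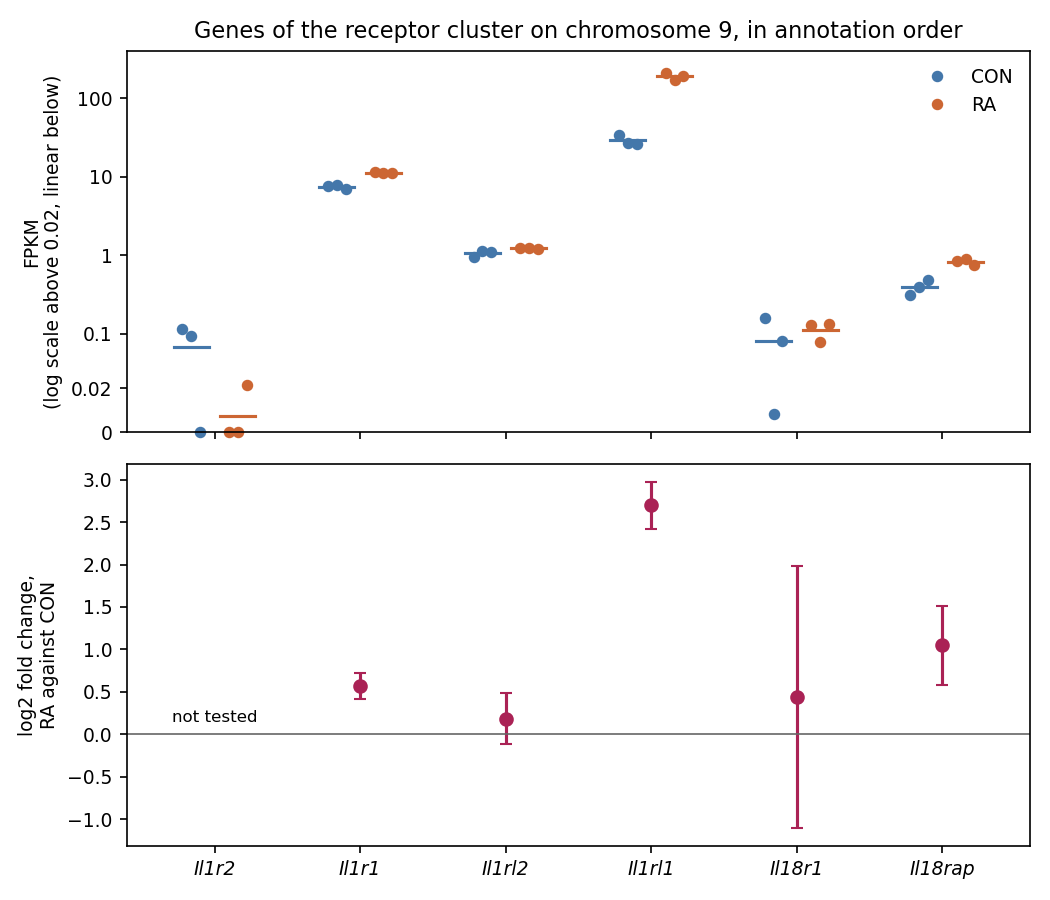
FPKM in each sample (upper panel, logarithmic above 0.02 and linear below, bars at group means, n = 3) and log2 fold change with 95% interval (lower panel) for the 6 cluster genes in their order along chromosome 9. Il1rl1 (2.70) and Il18rap (1.05) were called higher in RA, Il18r1 between them has the widest interval, and Il1r2 was not tested.

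The 5 tested genes with a mean level of at least 1 FPKM whose log2 CPM followed Il1rl1 most closely over the 6 samples were Epb41l3 (Pearson r = 0.9996), Axin2 (0.9994), Igfbp3 (0.9987), Cpm (0.9982) and Plk2 (0.9978). Of 11341 genes compared, 63 had an r above 0.99. The points share the split into CON and RA, which sets most of each r, so the values only describe the pattern. The log2 fold changes were 0.58 for Epb41l3, 1.28 for Axin2, 1.92 for Igfbp3, 1.55 for Cpm and 1.13 for Plk2, each smaller than that of Il1rl1. Igfbp3, a binding protein for insulin-like growth factors, was the most abundant of them at 33.1 FPKM in CON and 127 FPKM in RA. Axin2, a feedback inhibitor of Wnt signalling, was at 1.64 and 4.02 FPKM.

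The rest of the pathway was followed in 5 lists of genes outside the family of 10, together 61 genes, of which 55 had a row in the tables and 46 were tested. Of these, 6 were called higher and 2 lower in RA, against 2.67% and 2.29% of all genes tested, and the median log2 fold change was 0.037. The lists were written from textbook roles, with earlier results of these data known.

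Of the 16 proximal signalling genes, 0 were called by edgeR and 0 by DESeq2 or limma. An unadjusted p under 0.05 was given for 1 of the 16 by edgeR and for 2 by DESeq2 and by limma, and the adjusted p alone passed 0 in each, against 9.82% of all genes tested by edgeR. Their median log2 fold change was 0.00092. Myd88, the adaptor shared by IL-1R1 and ST2, had means of 12.2 ± 0.938 and 12.3 ± 0.860 FPKM (SD, n = 3 each). Its log2 fold change was 0.0013 (SE 0.0894, edgeR adjusted p = 0.995). Tab2, a subunit of the TAK1 kinase complex and the gene of this list with the highest mean level over all samples, stood at 56.7 and 51.2 FPKM with a log2 fold change of −0.16 (SE 0.0718, edgeR adjusted p = 0.215). Map3k7, the TAK1 gene, varied most between replicates, with 17, 144 and 21 reads in CON and 243, 44 and 27 in RA, and its log2 fold change of 0.85 (SE 0.992, edgeR adjusted p = 0.645) was smaller than its error.

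Of 9 brakes on the signal, 0 were called by edgeR, DESeq2 or limma, while 2 had an unadjusted p under 0.05 by each tool. Tollip, an adaptor that restrains IRAK1 and the most abundant of them in CON, had a log2 fold change of 0.016 (SE 0.0705, edgeR adjusted p = 0.917). Dusp1, a phosphatase that inactivates MAP kinases, was the gene of this list past the adjusted p alone, with 1113, 1199 and 1397 reads in CON and 1673, 1560 and 1638 in RA. Its log2 fold change was 0.51 (SE 0.0651, edgeR adjusted p = 0.00182), short of the threshold. Nfkbia, the NF-κB inhibitor that NF-κB itself induces, had a log2 fold change of 0.26 (SE 0.110, edgeR adjusted p = 0.199), with the groups apart.

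Of 9 genes for ligand maturation and release, 5 were tested and Casp4 was called, lower in RA. Casp4 encodes the inflammatory caspase of the non-canonical inflammasome. It had 2077, 1721 and 1955 reads in CON and 1080, 1054 and 980 in RA, or 48.0 ± 6.73 and 28.3 ± 2.12 FPKM (SD, n = 3 each), and its log2 fold change was −0.77 (SE 0.105, edgeR adjusted p = 0.00261). Casp1, the caspase that matures IL-1β and IL-18, had 0, 0 and 2 reads in CON and 4, 6 and 4 in RA and was not tested. Gsdmd, the pore-forming substrate of these caspases, was at 9.98 and 10.3 FPKM with a log2 fold change of 0.032 (SE 0.116, edgeR adjusted p = 0.899).

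Of 16 genes that IL-1 is known to induce in chondrocytes, 12 were tested, 5 were called higher and 1 lower in RA. Over all genes tested, 2.67% were called higher and 2.29% lower. The list was written with earlier results of these data known, and whether IL-1 signalling had a part was not tested. Mmp13, the main collagenase of cartilage, had 5140, 3732 and 4046 reads in CON and 19745, 17040 and 20998 in RA, and a log2 fold change of 2.26 (SE 0.153, edgeR adjusted p = 8.77e-05). It reached 246 FPKM in RA from 50.9 FPKM in CON, levels of the same order as those of Il1rl1. Mmp3, stromelysin, rose by 1.02 on the log2 scale (SE 0.129, edgeR adjusted p = 0.00180), from 3.63 to 7.42 FPKM. Ccl2, a monocyte chemokine, rose by 1.22 (SE 0.194, edgeR adjusted p = 0.00560), from 6.70 to 15.8 FPKM. Cxcl1, a neutrophil chemokine, had 77, 121 and 79 reads in CON and 191, 192 and 173 in RA, and a log2 fold change of 1.11 (SE 0.235, edgeR adjusted p = 0.0208). Its call was lost without RA replicate 1 (1.08), RA replicate 2 (1.06) or RA replicate 3 (1.17). Lcn2, lipocalin-2, was called at a log2 fold change of 0.60 (SE 0.158, edgeR adjusted p = 0.0488). With a sample left out it was called only without CON replicate 2 (0.77), and not without CON replicate 1 (0.52), CON replicate 3 (0.54), RA replicate 1 (0.62), RA replicate 2 (0.68) or RA replicate 3 (0.50). It was also not called under upper-quartile scaling (0.59) or in limma on log2(FPKM + 1) (0.57).

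Without CON replicate 1, the log2 fold changes were 2.46 for Mmp13, 1.12 for Mmp3, 1.48 for Ccl2, 1.02 for Cxcl1, −0.82 for Tnfaip6, −0.66 for Casp4 and 0.90 for Il18rap, all still called by edgeR. The list also held genes that went the other way or did not pass the test. Tnfaip6, an anti-inflammatory hyaluronan-binding protein, had 255, 258 and 333 reads in CON and 157, 135 and 154 in RA and was called lower, with a log2 fold change of −0.80 (SE 0.118, edgeR adjusted p = 0.00397). Ptgs2, the inducible cyclooxygenase, had a log2 fold change of 0.096 (SE 0.122, edgeR adjusted p = 0.674) at 6.14 and 6.62 FPKM. The aggrecanase genes Adamts4 and Adamts5 had log2 fold changes of 0.034 and −0.18 (edgeR adjusted p = 0.886 and 0.237). Lif and Ptges had log2 fold changes of 0.49 and 0.40, with the groups apart for Lif, and Nfkbiz had −0.16. None of them was called (edgeR adjusted p = 0.172, 0.255 and 0.742). Il6 had 9, 9 and 4 reads in CON and 10, 5 and 25 in RA and was not tested. Of the 11 other family genes, 6 had a row and 4 were tested, of which Il18rap was called. Il18bp, the secreted inhibitor of IL-18, had a log2 fold change of −0.030 (SE 0.222, edgeR adjusted p = 0.950).

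**Figure D4:**
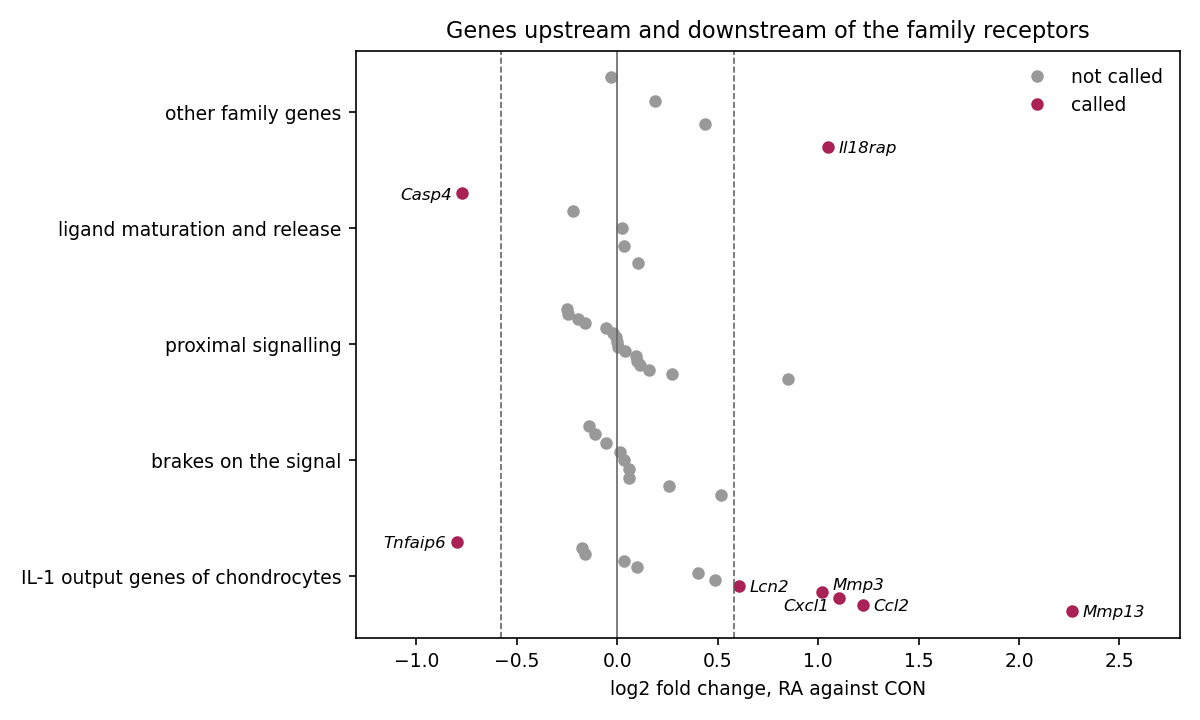
Log2 fold change of RA against CON (x axis) for the 46 tested genes of 5 pathway lists (y axis), with called genes in red and named and dashed lines at 0.58 in either direction. All 16 proximal signalling genes and all 9 brakes are grey, and the called genes lie mostly among the IL-1 output genes, from −0.80 for Tnfaip6 to 2.26 for Mmp13.

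Markers of other cells in which ST2 or IL-33 is known were measured in the same samples, and their part in the Il1rl1 difference was not tested. Mast cell markers had a row for 2 of 8 genes, whose summed level was 12.8 to 13.9 CPM in CON and 11.0 to 12.1 CPM in RA, lower in RA. Kit gave almost all of these reads, with 3 to 7 reads per sample for Hdc. Kit was not called (log2 fold change −0.24, SE 0.0948, edgeR adjusted p = 0.172). Markers of T cells and innate lymphoid cells had a row for 6 of 8 genes and summed to 8.79 to 10.4 CPM in CON and 9.93 to 11.5 CPM in RA, with overlap. Gata3, with 131 to 172 reads per sample, and Rora, with 97 to 141, gave most of these reads, and Il7r and Cd3g had 0 to 2. Gata3 and Areg had log2 fold changes of 0.30 and 0.78 with the groups apart, and neither was called (edgeR adjusted p = 0.214 and 0.142). Markers of macrophages and other leukocytes had a row for 7 of 8 genes and summed to 22.7 to 25.8 CPM in CON and 27.4 to 29.7 CPM in RA, higher in RA. Cd14 gave most of them, while Ptprc had 0 to 5 and Adgre1 0 to 1 reads per sample. Of the 4 tested genes of this list, 0 were called by edgeR, DESeq2 or limma, and 1 had an unadjusted p under 0.05 by each. They had log2 fold changes from −0.27 for Lyz2 to 0.91 for Csf1r, and Itgam, not tested, had 6, 6 and 8 reads in CON and 3, 2 and 2 in RA.

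Endothelial markers, with a row for 6 of 8 genes, summed to 8.82 to 12.2 CPM in CON and 9.48 to 10.4 CPM in RA and overlapped. Egfl7 gave nearly all of these reads, with 236 to 441 per sample, while Emcn had 0 and Cdh5 0 to 1. Epithelial markers had a row for 6 of 7 genes and summed to 9.60 to 10.7 CPM in CON and 7.70 to 9.12 CPM in RA, lower in RA. Krt8 gave most of them, with 254, 272 and 344 reads in CON and 169, 219 and 214 in RA, and Krt5 and Krt14 had 0 to 3 reads per sample. The log2 fold changes were −0.41 for Krt8, 0.58 for Krt18 and 0.22 for Epcam, and none of the 3 was called (edgeR adjusted p = 0.111, 0.484 and 0.648). Osteoblast markers, all 6 with a row, summed to 19.4 to 21.2 CPM in CON and 18.4 to 18.7 CPM in RA, lower in RA. Alpl gave most of this sum and its lower level in RA, and 3 of the 4 tested had log2 fold changes above 0. Of the 4 tested, Ibsp, a bone matrix protein, was called higher (log2 fold change 1.47, SE 0.239, edgeR adjusted p = 0.00622). Alpl, alkaline phosphatase, went the other way without reaching the fold threshold (log2 fold change −0.42, SE 0.0895, edgeR adjusted p = 0.0219). Dmp1 was not tested, with 4, 2 and 2 reads in CON and 14, 5 and 27 in RA. The fibroblast and perichondrium markers, all 7 with a row, summed to 14878 to 21058 CPM in CON and 20336 to 21847 CPM in RA and overlapped. Col1a1 gave most of this sum, with mean levels of 17427 CPM in CON and 20174 CPM in RA. Of the 7, 0 were called by edgeR, DESeq2 or limma, and 4 had an unadjusted p under 0.05 by edgeR and DESeq2 and 5 by limma. By edgeR, 2 passed the adjusted p alone in opposite directions, Pdgfra at a log2 fold change of 0.44 and Dcn at −0.41 (edgeR adjusted p = 0.00155 and 0.0378). The chondrocyte markers moved in the opposite direction to Il1rl1, as given above, and their part in its difference was likewise not tested.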

How the data were processed

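Poly(A) RNA of 6 samples of primary rat chondrocytes (3 CON, 3 RA) was analysed, grouped by the sample titles. For each gene the authors deposited a raw count of reads, and beside it an FPKM value, that is the count scaled by gene length and by the sample's total count. The submitters' processing notes name HISAT2, HTSeq 0.13.5 and Rnor_6.0. A strand setting is not given in the sources used here, so reads of overlapping genes on opposite strands cannot be told apart. Where identifiers shared a symbol (158 identifiers), the one with the highest mean count was used.

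Counts were tested with edgeR 4.0.16 in R 4.3.3 (TMM scaling, filterByExpr with a minimum count of 10, glmQLFit and glmQLFTest, no covariates, all 6 samples), with Benjamini-Hochberg adjustment over the 13438 genes kept. Standard errors came from the F statistic. FPKM gave levels and within-sample ratios. The members and lists were chosen with earlier results of these data known. Named were all 10 members, called genes of the lists, an abundant uncalled gene of a list as an example, the neighbours of Il1rl1, and the 5 genes most correlated with it. Map3k7, Dusp1, Casp1, Il6 and the other uncalled genes named were chosen after their values were seen. Promoter windows came from RefSeq (GRCr8), and the motif search covered both strands. Listed genes without a row, such as the Il36 genes and Nos2, were not analysed here. On simulated counts of RA against CON for 13277 genes, 98.5% of 200 changed genes were called, with 0 wrong signs and 2 unchanged genes called. The changed genes were drawn above a set mean count and given changes beyond the fold threshold, with the same dispersion for all genes. These rates therefore do not cover genes with low counts, changes near the threshold or a replicate that stands apart. Total counts were 29370025 to 38007486, and the common biological coefficient of variation between replicates was 0.122.

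The alternatives were size factors of DESeq2 and upper-quartile scaling in the edgeR fit, DESeq2 1.42.0, no filter, a filter at an FPKM of 1 in 3 samples, limma 3.58.1 on log2(FPKM + 0.1) or log2(FPKM + 1), the adjusted p alone, the replicate number as a block, and each sample left out in turn.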

Additional observations from a re-analysis of the deposited data

How the results depend on the processing

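Il1rl1 was called in all 14 alternatives that give another log2 fold change, with log2 fold changes of 2.63 to 2.84. Of 82 values of the 6 tested family genes under alternatives, 80 kept their sign and stayed called or not called as before. The exceptions were Il1r1, called without CON replicate 2 (0.60), and Il1rn, which turned positive without RA replicate 3 (0.11). Il1rn ran from −0.35 to 0.11 with a sample left out. Some values crossed the fold threshold without a call. These were Il33 without CON replicate 1 (0.63) and Sigirr in several alternatives, the highest without CON replicate 2 (0.78). By the adjusted p alone, which keeps the fold changes as they are, Il1r1 was called beside Il1rl1, 2 of the 6 against 9.82% of all genes tested, and nothing is read from this count. Over all genes, 667 were called; limma on log2(FPKM + 1) called 434 and the adjusted p alone 1319. With a sample left out, the calls ran from 480 to 755, and the pathway genes called higher from 3 to 6, with 3 without RA replicate 1 or RA replicate 2; 2 were called lower in each of these fits. The lost calls were among Il18rap, Cxcl1 and Lcn2. The causes were not tested. Over the alternatives, 51.3% to 59.0% of calls were higher in RA. Left-out samples moved the Il1r2 to Il1r1 ratio between 0.00587 and 0.0133 in CON and between 0 and 0.00102 in RA, since it rests on 9 reads and 1 read of Il1r2. The deviations of same-numbered CON and RA samples correlated at 0.093, −0.012 and 0.012, so no pairing by number was seen. With 3 samples per group, these values cannot exclude that samples of the same number shared an origin. The fit with the replicate block gave 684 calls, the same counts of 6 higher and 2 lower pathway genes and a log2 fold change of 2.71 for Il1rl1. Not every sample correlated best with its own number. Depth limited Il1a, Il1b, Il18 and Il1r2, which had 0 to 9 reads per sample.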
